A study of Rattus norvegicus with 458 samples.

Results

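The pancreas of the rat was compared with 4 other organs of the digestive tract by small RNA sequencing. The pancreas was represented by the 10 libraries whose tissue label is Pancreas, out of 215 libraries from 23 tissues, and the libraries labelled Liver, Jejunum, Ileum and Stomach_Glandular (10 each) formed the comparison. The same 10 animals (rats 2 to 6 male, rats 7 to 11 female) gave all 5 organs, so each pancreas was compared with the mean of the 4 other organs of its own rat. All animals were untreated Sprague Dawley rats of 12 to 13 weeks, without a transgene or any treatment arm. The measured unit was the read count of each miRNA name in the deposited table. A name was a single mature miRNA, a miRNA predicted by the study, a precursor remainder marked "-pre", or several of these joined where a read matched more than 1 precursor. Levels are given as counts per 1000000 miRNA counts of a library (CPM), and differences as log2 fold changes from a model in which libraries were scaled by the upper quartile of their counts.

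A miRNA is a short RNA that guides the silencing complex to messenger RNAs by its seed, the bases 2 to 8 from the 5′ end. Most of the pancreas consists of acinar cells, which make digestive enzymes, with smaller numbers of duct cells and of hormone-producing islet cells. miR-216a, miR-216b and miR-217 come from neighbouring hairpins and are known as acinar miRNAs, miR-375 is best known from the islets, where it takes part in the control of insulin secretion, and the miR-200 family, with miR-141, maintains the epithelial state by repressing ZEB1 and ZEB2. In bulk tissue, fewer cells of a type and less RNA per cell cannot be told apart.

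The mature sequences below are those of RefSeq on the GRCr8 rat assembly, with the seed in capitals, and are shown because the differences of the pancreas turn on them. The acinar cluster lies on the plus strand of chromosome 14, where its 6 mature miRNAs span 18.5 kb. miR-216a-5p (chr14:106725095-106725116) and miR-216b-5p (chr14:106714045-106714066) differ in the last base of the seed, and miR-217-5p (chr14:106732516-106732537) has a different seed.
miR-216a-5p: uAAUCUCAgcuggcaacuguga
miR-216b-5p: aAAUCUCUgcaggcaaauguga
miR-217-5p: uACUGCAUcaggaacugacugg
miR-216a-3p: cACAGUGGucucugggauuaug
miR-216b-3p: cACACUUAcuuguagagauu
miR-217-3p: aUCAGUUCcuaaugcauugccu

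The family of miR-148 and miR-152 shares the seed CAGUGCA. miR-148a-3p lies on the minus strand of chromosome 4 (chr4:81664447-81664467), miR-148b-3p on the plus strand of chromosome 7 (chr7:136299930-136299951) and miR-152-3p on the plus strand of chromosome 10 (chr10:82329435-82329455).
miR-148a-3p: uCAGUGCAcuacagaacuuug
miR-148b-3p: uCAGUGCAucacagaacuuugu
miR-152-3p: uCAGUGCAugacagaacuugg

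miR-375-3p (chr9:83906591-83906612, minus strand), miR-141-3p (chr4:159209540-159209561, minus strand), miR-672-5p (chrX:73192351-73192373, minus strand) and miR-153-3p (chr6:144306646-144306667, plus strand) each have a seed that no other sequence printed here shares. miR-192-5p (chr1:212994232-212994252, plus strand) and miR-215 (chr13:99383003-99383024, plus strand), which were far lower in the pancreas than in the intestine, share the seed UGACCUA.
miR-375-3p: uUUGUUCGuucggcucgcguga
miR-141-3p: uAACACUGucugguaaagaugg
miR-672-5p: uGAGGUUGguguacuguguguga
miR-153-3p: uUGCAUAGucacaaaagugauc
miR-192-5p: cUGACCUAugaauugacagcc
miR-215: aUGACCUAugauuugacagaca

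The 50 libraries held 1041508 to 17725805 counts (median 4454751), and the 10 pancreas libraries 1745243 to 6705848. RNA integrity numbers (RIN) were lower in the pancreas, at 6.12 ± 0.569 (SD, n = 10), than in the liver (mean 7.93), the jejunum (7.62), the ileum (8.84) and the glandular stomach (8.39), in 10 of 10 rats against the mean of the 4 organs (exact sign-flip permutation test, two-sided p = 0.00195, the smallest that 10 rats allow). All 10 pancreas RNAs, but only 5 liver and 2 jejunum RNAs, are labelled as re-extracted, so that re-extraction and RIN cannot be told apart from the organ. Each of the 10 pancreas libraries correlated more with the other pancreas libraries than with those of any other of the 23 tissues (median r of at least 0.946 against at most 0.896). Over the 5 organs this held for 48 of 50 libraries, and the jejunum of rat 4 and the ileum of rat 7 were the exceptions.

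A few libraries stood apart. In the glandular stomach of rats 10 and 11 the acinar miRNAs were present at 0.65% to 3.68% of their mean pancreas level, while the other 8 glandular stomach libraries were under 1 CPM for each of them. The glandular stomach of rat 3 held miR-215 at 12303 CPM, against 8.70 to 80.6 CPM in the other 9, and miR-122-5p at 66.5 CPM. In 3 libraries, the pancreas of rat 5, the ileum of rat 3 and the glandular stomach of rat 4, reads with an extra base at the 5′ end made up 40.6%, 34.6% and 23.7% of the counts of 20 leading names, against 0.0440% to 0.467% in the other 47. In the flow cell D1GBMACXX these 3 libraries had 0.0605%, 0.282% and 0.340%, a level like that of the other 47, so the extra bases lay in reads of their other flow cells. Levels of the acinar miRNAs, miR-215 and miR-122-5p are given below with and without the glandular stomach libraries concerned, and the forms of the reads with and without the rats of the libraries with extra first bases.

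The entry that joins miR-148a-3p with a predicted miRNA on chromosome 4, called the joined miR-148a-3p entry here, dominated the pancreas libraries. It took 53.6% of the miRNA counts in the lowest pancreas library, 60.0% at the median and 63.7% in the highest. The means of the other organs were 5.62% ± 0.687 (SD, n = 10) in the liver, 0.488% ± 0.0647 in the jejunum, 0.456% ± 0.0844 in the ileum and 1.35% ± 0.680 in the glandular stomach, where the highest library, that of rat 10, reached 2.84%. No library of another organ came near the pancreas range. The pancreas was higher by 57.4 ± 3.44 percentage points (SD of the difference, n = 10) than the mean of the 4 organs. The entry was singled out because it holds most pancreas counts, so these values are a description and no p-value is given for them.

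**Figure D1:**
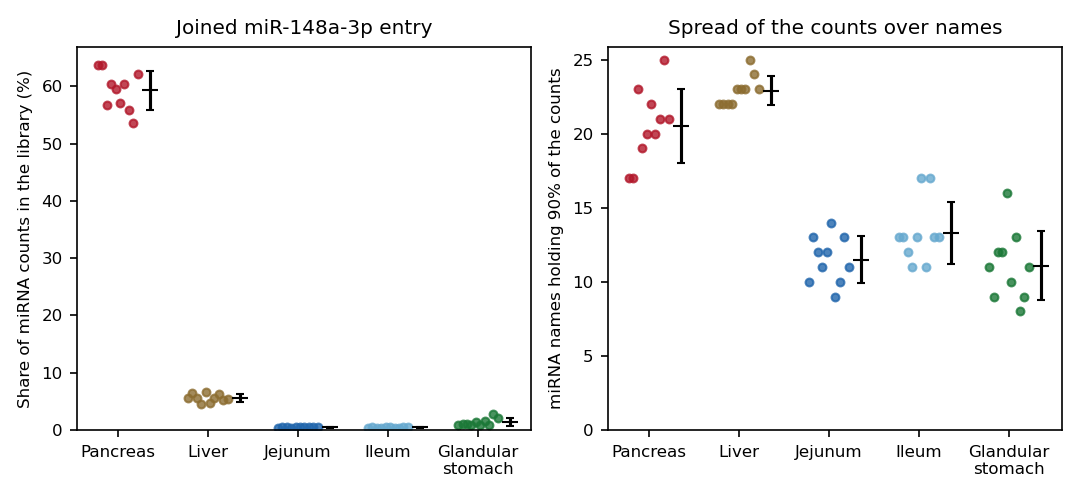
Left, share of miRNA counts taken by the joined miR-148a-3p entry in each library (%), and right, number of miRNA names that hold 90% of all counts, for the pancreas and 4 organs (points, libraries; line and bars, mean ± SD, n = 10). The pancreas lies at 53.6% to 63.7% on the left above every other library, and at 17 to 25 names on the right, a range that overlaps with that of the liver (22 to 25).

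The spread of the counts over names was compared with all names kept. A single name held 50% of the counts in every pancreas and every glandular stomach library, 2 names did so in the jejunum and the ileum, and 3 to 4 in the liver. For 90% of the counts the pancreas needed 17 to 25 names (mean 20.5), against means of 22.9 in the liver, 11.5 in the jejunum, 13.3 in the ileum and 11.1 in the glandular stomach. The pancreas needed fewer than the liver in 8 of 10 rats (difference -2.4 ± 2.17, SD, exact sign-flip permutation, adjusted p = 0.026) and more than each of the other 3 in 10 of 10 rats (exact permutation, adjusted p = 0.0037). The leading name differed by organ: it was miR-22-3p in the liver, miR-215 in the jejunum, and miR-143-3p in the ileum and the glandular stomach, where it took 68.0% to 79.5% of the counts. When each library lost its own leading name, an alternative chosen after the data were seen, 39 to 47 names (median 41.5) held 90% of the rest in the pancreas and 39 to 44 (median 41.5) in the glandular stomach, so these groups overlapped. The ranges of the liver (27 to 31), the jejunum (16 to 21) and the ileum (16 to 26) lay lower.

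The number of miRNAs seen at a given depth was also compared. At 1000000 counts drawn from each library, a mean of 866.5 names had a count in the pancreas and 751.6 in the 4 organs, a difference of 114.9 ± 194.7 (SD) that held in 7 of 10 rats (exact sign-flip permutation p = 0.104).

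Of the 569 miRNA names with enough counts to test, 162 (28.5%) were higher in the pancreas than in the mean of the 4 organs and 189 (33.2%) were lower, 61.7% in all (edgeR quasi-likelihood test with the rat as a block, Benjamini-Hochberg adjusted p below 0.05). The median log2 fold change over the 569 names was 0.08. With names that hold a prediction or a precursor remainder left out, 436 names were tested. The balance of the calls rested on how libraries were scaled: TMM scaling gave 162 higher and 190 lower, library totals gave 238 and 131 (median 0.55, 64.5% of calls higher), and totals without the joined miR-148a-3p entry gave 461 and 34 (median 1.83, 93.1% higher). Fold changes below are on the upper quartile scale, and directions of families hold relative to the median of all names.

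**Figure D2:**
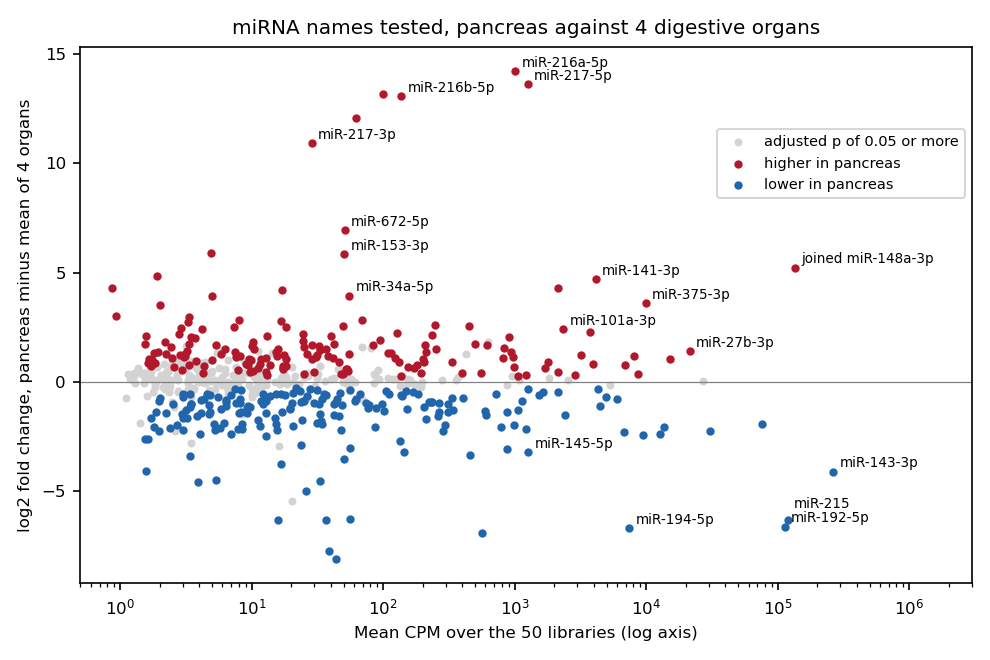
Log2 fold change of the pancreas against the mean of 4 organs for 569 miRNA names (points) by their mean level over the 50 libraries (CPM, log axis), with names past an adjusted p of 0.05 in red (162 higher) and blue (189 lower). The 6 names of the miR-216 and miR-217 cluster lie highest, between 10.93 and 14.21, and miR-192-5p, miR-194-5p and miR-215 lie below -6.

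The acinar cluster showed the largest differences. All 6 of its tested names rose, but each reached the 2.24 CPM limit of the count filter in fewer than 10 libraries of other organs and so passed through the pancreas, which makes their rise a description. Of the 7 names of the list with a count, the remaining 1 had too few counts to test. miR-217-5p stood at 3932 CPM in the lowest pancreas library, 5936 CPM at the median and 9022 CPM in the highest. miR-216a-5p ranged from 3654 over a median of 4962 to 6937 CPM, and miR-216b-5p from 474 over 668 to 964 CPM. All 10 pancreas libraries lay far above all 40 others for each of the 6 names. In CPM, 7.73% of the tested names had all pancreas libraries above all 40 others. That share was 21.3% with the joined miR-148a-3p entry left out of the totals and 5.98% after upper quartile scaling. The log2 fold change was 14.21 ± 0.57 (SE) for miR-216a-5p and 13.62 ± 0.61 for miR-217-5p, likewise given as a description.

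The less abundant arms of the 3 hairpins had the same pattern. miR-216a-3p ranged from 432.9 to 649.6 CPM in the pancreas, miR-216b-3p from 187 to 472 CPM and miR-217-3p from 97.8 to 184 CPM. In the liver, the jejunum, the ileum and 8 of the glandular stomach libraries, none of these arms had more than 2 counts over all libraries of an organ. The glandular stomach of rats 10 and 11 held 63 and 82 counts of miR-216a-3p, 35 and 15 of miR-216b-3p, and 14 and 13 of miR-217-3p. Over all 10 ileum libraries, 0 counts of miR-216a-3p were found in 44605350, which puts the pancreas at least 7429-fold higher when the floor is set at 3 counts over the group. The 8 glandular stomach libraries other than those of rats 10 and 11 had 0 counts of miR-216b-5p in 54648623, which puts the pancreas at least 12444-fold higher, and the 10 jejunum libraries had 0 counts of miR-217-3p, for a difference of at least 2099-fold. The floors allow for counting error alone, as amplified reads of 1 molecule could not be told apart.

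The 5p arms were not at zero elsewhere. miR-216a-5p had 16 counts over 10 liver libraries, 6 over 10 jejunum libraries and 9 over 10 ileum libraries, and no library of these organs held more than 6. miR-217-5p had 11, 12 and 22 counts in the same organs. In the glandular stomach of rats 10 and 11, miR-217-5p reached 189 and 108 CPM, miR-216a-5p 86.4 and 46.2 CPM and miR-216b-5p 25.1 and 17.1 CPM. How these miRNAs came into the pair of libraries was not tested. Without the glandular stomach libraries of rats 3, 10 and 11, the fold change of miR-216a-5p against the glandular stomach was 13.74 in place of 10.89 and that of miR-217-5p 12.74 in place of 10.07, while the values against the mean of 4 organs were 13.92 and 13.45. Among all 23 tissues, the pancreas had the highest mean of miR-216a-5p and the duodenum came next, at 201 CPM.

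**Figure D3:**
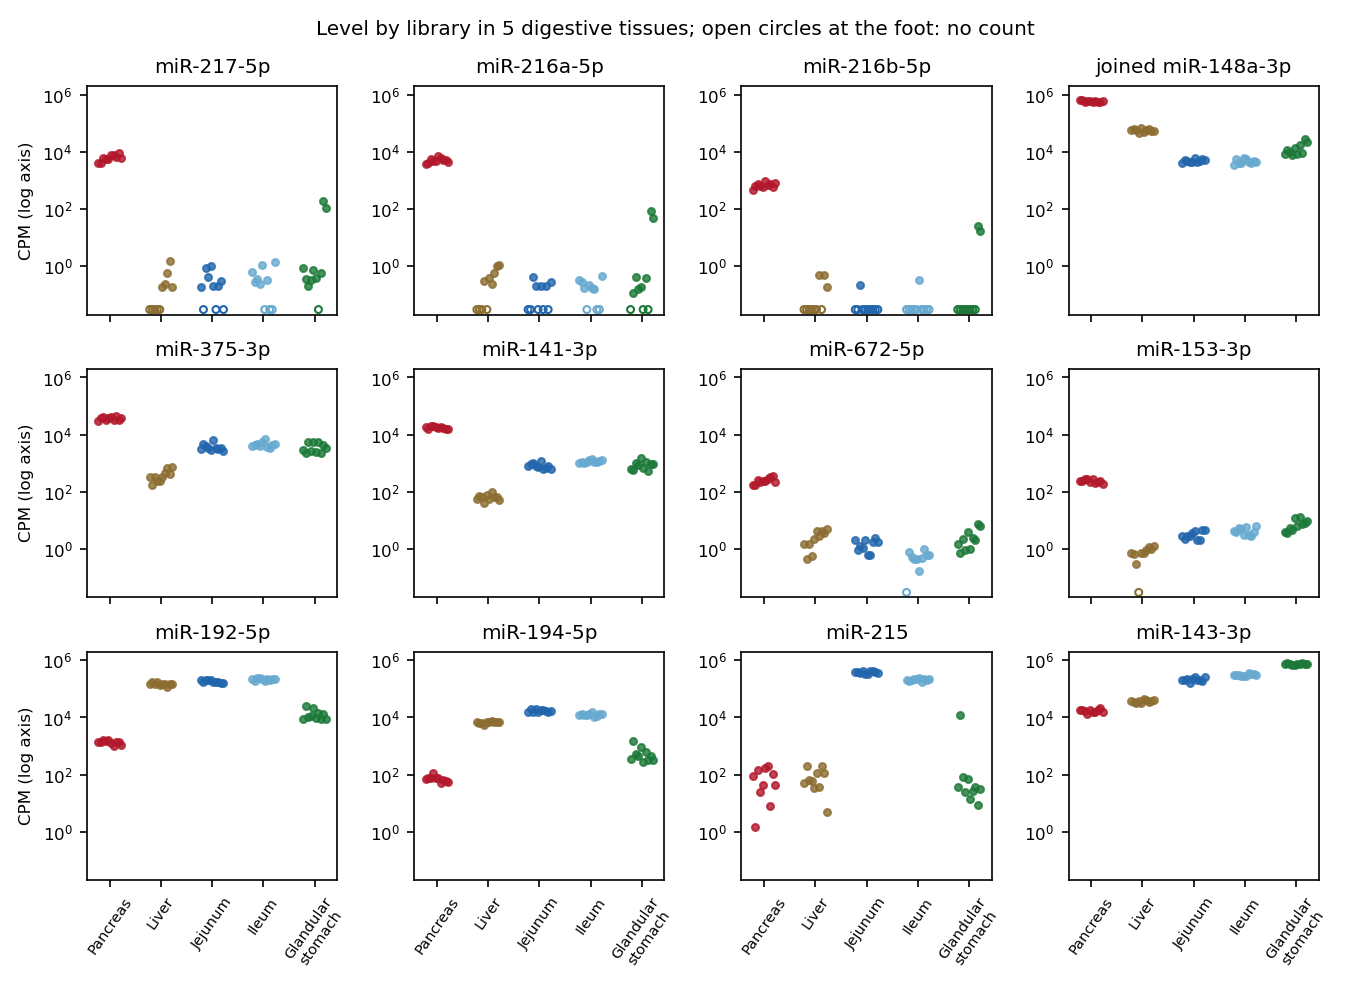
Level of 12 miRNAs in each library of the pancreas and 4 organs (CPM, log axis; points, single libraries in rat order; open circles at the foot, no count). The miR-216 and miR-217 names were above 400 CPM in every pancreas library and at or under 1.47 CPM in the others, except in the glandular stomach of rats 10 and 11, while miR-192-5p, miR-194-5p and miR-143-3p were lower in every pancreas library than in all others.

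The 5′ end of a read sets its seed, and the 5′ ends of the cluster's reads varied by arm. Without rat 5, whose library carried extra first bases, 88.4% ± 1.46 (SD, n = 9) of the pancreas reads of miR-216a-5p began at the RefSeq start and 10.1% ± 0.992 began 1 base earlier. miR-217-5p had 90.4% ± 1.10 at the RefSeq start, and miR-216b-5p 98.6% ± 1.11. miR-217-3p was the exception: 28.2% ± 4.12 of its reads began at the RefSeq start and 70.3% ± 3.70 began 1 base earlier, so that most of its reads carried a seed shifted by 1 base from the one printed above. The reads of miR-216b-3p were split, with 42.7% ± 2.37 at the RefSeq start, 26.5% ± 4.49 at 1 base earlier and 19.2% ± 3.35 at 1 base later. In rat 5 itself, 43.6% of miR-216a-5p reads began at the RefSeq start and 50.6% began 1 base earlier.

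Of the family of miR-148 and miR-152, 6 of the 7 tested names rose and 1 fell, where 28.5% and 33.2% of all names did. Among the 6, the small separate entry of miR-148a-3p passed the count filter through the pancreas, and the joined miR-148a-3p entry was singled out by its pancreas counts. The joined miR-148a-3p entry ranged from 536278 over a median of 600300 to 637183 CPM in the pancreas, and its mean was 56249 CPM in the liver, 13547 in the glandular stomach, 4883 in the jejunum and 4558 in the ileum. The groups did not overlap. Its log2 fold change was 5.23 ± 0.12, and it was 5.22 without the 3 glandular stomach libraries. As the entry was singled out by its pancreas counts, both values are a description. The opposite arm, likewise joined with the prediction, had a mean of 8491 CPM against 1708 in the liver and 129 to 264 in the other 3 organs, a log2 fold change of 4.29 ± 0.12 (edgeR, adjusted p = 2.3e-29). miR-152-3p, from a different chromosome, ranged from 556 to 967 CPM against organ means of 69.9 to 249.9 CPM, and rose by 2.14 ± 0.11 (edgeR, adjusted p = 1.1e-20).

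The call for miR-148b-3p depended on which reads were counted under that name. As deposited, its level was 383 to 854 CPM in the pancreas and it was called higher, by 0.41 ± 0.10 (edgeR, adjusted p = 3.5e-04). Only 43.9% of its pancreas reads began with the first 20 bases of RefSeq miR-148b-3p, against 91.8% to 94.2% in the 4 organs. A further 52.4% differed by 1 base at most from the most counted miR-148a-3p sequence, against 3.06% to 7.54% elsewhere. The sequences below, written as DNA as in the deposited table, show the 4 forms, with bases 9 and 10 in capitals, counted from 1 at the 5′ end. The third form differs from the first by T10C and from the second by T9C, and the fourth differs from the first by C9T and from the second by C10T.
miR-148a-3p, most counted: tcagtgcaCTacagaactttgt
miR-148b-3p: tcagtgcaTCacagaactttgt
counted as miR-148b-3p: tcagtgcaCCacagaactttgt
counted as miR-148b-3p: tcagtgcaTTacagaactttgt

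The last 2 forms were also set against the abundant miR-148a-3p sequence. Per 1000000 counts of that sequence, the form with CC had a median of 311 in the pancreas and 309 over all 50 libraries. In 3 libraries (liver of rat 5, jejunum of rat 3 and ileum of rat 5) it lay between 14418 and 15559, and in the rest it did not exceed 966. The form with TT had a median of 148 in the pancreas and at most 354 in any library. When only reads with the first 20 bases of miR-148b-3p were taken, its pancreas level was 127 CPM at the lowest, 249.7 at the median and 318 at the highest, against a liver mean of 772 CPM. On that reading the direction turned: miR-148b-3p was lower in the pancreas in 10 of 10 rats, by 0.67 ± 0.328 (SD) on the log2 scale (exact sign-flip permutation p = 0.00195). For this value 0.5 was added to each count and the libraries were scaled by the upper quartile. Among names with at least 1000 counts, no other name than miR-148b-3p and the joined entry itself held such reads.

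**Figure D4:**
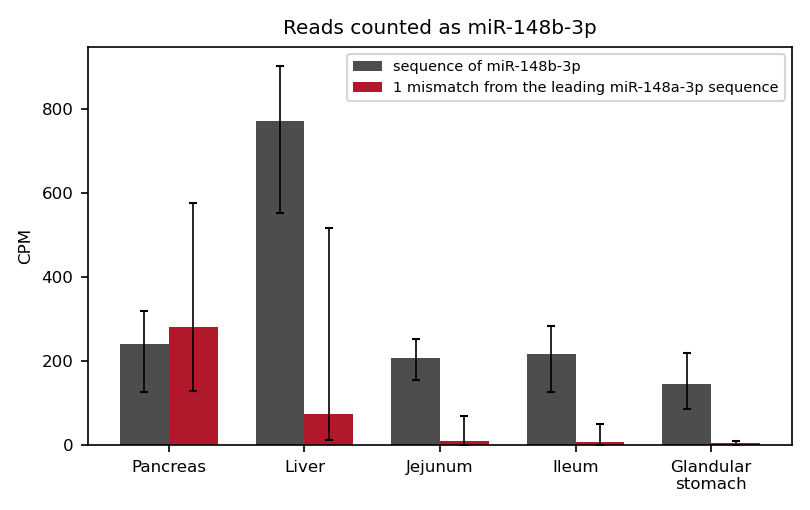
Mean level (CPM, n = 10 libraries) of the reads counted as miR-148b-3p, split into those with the sequence of miR-148b-3p (grey) and those with at most 1 mismatch from the leading miR-148a-3p sequence (red); error bars span the lowest to the highest library. In the pancreas the 2 kinds were 239.6 and 279.5 CPM, and in the liver 771.6 and 72.7 CPM, where 1 library with 516.9 CPM sets the upper end of the red bar.

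miR-375-3p, the islet-associated miRNA, was far higher in the pancreas than in the other organs. Its pancreas level ranged from 29656 over a median of 38037 to 44607 CPM. The highest library of any other organ held 7005 CPM, in the ileum, and the liver mean was 392 CPM. The difference from the 4 organs was 3.60 ± 0.14 (edgeR, adjusted p = 2.8e-24), and it was 6.78 against the liver but 2.44 to 2.63 against the 3 gut tissues. Over 23 tissues the pancreas was first and the adrenal next, at 5634 CPM.

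The other names of the endocrine list were less uniform. Of its 9 tested names, 4 rose, 1 fell and 4 did not pass, where 28.5% of all names rose and 33.2% fell. The median was 0.69 against 0.08 over all names. miR-96-5p (67.2 to 136 CPM) rose by 1.66 ± 0.15 and miR-182 (5072 to 8755 CPM), of the same cluster, by 0.80 ± 0.14. The third member, miR-183-5p, did not pass at 0.09 ± 0.13. miR-7a-5p, known from islet cells, was at a mean of 11.8 CPM in the pancreas and 10.8 to 14.7 CPM elsewhere. It fell by 0.56 on the log2 scale after upper quartile scaling (edgeR, adjusted p = 0.0013). In CPM its pancreas mean lay within the range of the organ means. miR-7a-1-3p, from the opposite arm of a miR-7a hairpin, rose by 0.99 ± 0.13 (edgeR, adjusted p = 5.6e-09). Its mean was 19.2 CPM in the pancreas, against organ means of 3.53 to 14.1 CPM.

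Among the epithelial miR-200 family, 8 of the 11 tested names rose and none fell, where 28.5% and 33.2% of all names did. The median was 1.73, and miR-200c-5p, among the 8, passed the count filter through the pancreas. miR-141-3p stood out: its pancreas level ranged from 15548 over a median of 17628 to 19750 CPM, against means of 64.5 CPM in the liver, 804 in the jejunum, 1181 in the ileum and 872 in the glandular stomach. The log2 fold change was 4.72 ± 0.09 (edgeR, adjusted p = 4.4e-34), the smallest adjusted p of the names described here, and no other library of the 4 organs exceeded 1488 CPM. Its partner in the same cluster, miR-200c-3p, rose by 2.54 (mean 1174 CPM in the pancreas). Of the names from the family's other cluster, miR-200a-3p rose by 1.55 ± 0.09, while miR-200b-3p (0.07 ± 0.14) and miR-429 (0.07 ± 0.13) did not pass. Against single organs, all 11 names rose relative to the liver, where 30.1% of all names did. Relative to the jejunum 5 rose and 4 fell, where 27.4% and 28.1% of all names did.

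Several less abundant names were also higher. miR-672-5p ranged from 170 over 241 to 362 CPM in the pancreas, and no library of the other organs exceeded 7.55 CPM. It rose by 6.95 ± 0.20 (edgeR, adjusted p = 1.7e-28), the largest difference after the acinar cluster among names above 100 CPM, and the adrenal came next over all tissues, at 86.1 CPM. miR-153-3p, known mainly from neurons and islets, ranged from 193 to 290 CPM, against at most 13.4 CPM in the other organs, and rose by 5.84 ± 0.16 (edgeR, adjusted p = 1.2e-29). The cerebrum held more of it than the pancreas, at 966 CPM. miR-34a-5p, a target of p53, ranged from 176 to 321 CPM against at most 35.8 CPM elsewhere and rose by 3.95 ± 0.13 (edgeR, adjusted p = 1.0e-26).

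Of the 10 names with the largest share of pancreas counts, not all were higher there. miR-27b-3p (45760 to 55878 CPM) rose by 1.39 ± 0.10, miR-30a-5p (22014 to 40290 CPM) by 1.05 ± 0.10 and let-7f-5p (12376 to 17198 CPM) by 1.17 ± 0.11. miR-181a-5p rose by 0.36 ± 0.10 but was not called against the jejunum or the ileum, where its values were -0.04 and -0.03. miR-26a-5p, at 26677 to 38573 CPM, did not pass (0.03 ± 0.09, edgeR adjusted p = 0.79): it was lower than in the liver by 0.58 on the log2 scale and higher than in the jejunum by 0.62. miR-22-3p fell by 1.91 on the log2 scale, with 12386 to 19007 CPM against a liver mean of 295596 CPM, and miR-143-3p is described with the muscle miRNAs below.

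The miRNAs known from intestinal and hepatic epithelium were far lower in the pancreas. Of the list of miR-192, miR-194 and miR-215, all 7 tested names fell, where 33.2% of all names did, with a median of -6.34. For 3 of the 7, no pancreas library reached the limit of the count filter, so these had to fall. miR-192-5p ranged from 1000 over 1402 to 1621 CPM in the pancreas, against means of 148290 CPM in the liver, 183383 in the jejunum, 220745 in the ileum and 13403 in the glandular stomach. miR-194-5p, whose hairpins neighbour those of miR-192 and miR-215, ranged from 53.0 over 73.0 to 115 CPM, against 569 to 17260 CPM. The log2 fold changes were -6.62 ± 0.20 (edgeR, adjusted p = 1.7e-28) and -6.71 ± 0.24 (edgeR, adjusted p = 2.0e-25), and no pancreas library overlapped with any other.

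miR-215, which has the same seed as miR-192, behaved differently by organ. Its pancreas level spread from 1.49 over 65.4 to 196.3 CPM, a range that overlapped with the liver (4.85 to 207 CPM), while the jejunum held 331149 to 437638 CPM and the ileum 172775 to 236176 CPM. The log2 fold change against the mean of 4 organs was -6.34 ± 0.89 (edgeR, adjusted p = 4.8e-08), but it consisted of -13.05 against the jejunum and -11.93 against the ileum. Against the liver it was 0.43 ± 0.77 (edgeR, adjusted p = 0.65). Against the glandular stomach it was -0.81 ± 0.89, and without the libraries of rats 3, 10 and 11 it was -0.13 ± 0.55 (edgeR, adjusted p = 0.88).

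Muscle miRNAs were lower as well. All 7 tested names of the smooth muscle list, which holds miR-143, miR-145, miR-1 and miR-133a, fell, where 33.2% of all names did. The median was -3.37, and 2 of the 7 reached the filter's limit in no pancreas library, so these had to fall. miR-143-3p ranged from 13682 over 17734 to 22310 CPM in the pancreas, against means of 37752 CPM in the liver, 215394 in the jejunum, 310147 in the ileum and 742690 in the glandular stomach. The difference was -0.95 against the liver, -4.36 against the jejunum, -4.70 against the ileum and -6.40 against the glandular stomach (edgeR, adjusted p at most 2.5e-07). miR-145-5p, from the same cluster, had a log2 fold change of -3.20 ± 0.20 against the 4 organs, although its value against the liver (-0.44 ± 0.21, edgeR adjusted p = 0.059) did not pass. miR-490-3p, at 0 to 1.42 CPM in the pancreas and means of 6.65 to 153 CPM elsewhere, fell by 6.29 ± 0.25 on the log2 scale. No pancreas library reached the filter's limit of 2.24 CPM for it, so it had to fall and the value is a description.

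Other names fell against each of the 4 organs. miR-21-5p, widely expressed and increased in many injured tissues, ranged from 2317 to 3615 CPM against organ means of 6191 to 38456 CPM, and fell by 2.40 ± 0.12 on the log2 scale (edgeR, adjusted p = 2.1e-20). miR-191a-5p (2444 to 3860.2 CPM) fell by 2.42 ± 0.11 and miR-107-3p (12.2 to 26.1 CPM) by 3.21 ± 0.18. For both, all pancreas libraries lay below all 40 others in CPM, a separation that 2.46% of names showed in that direction, and the pancreas had the lowest mean CPM of the 23 tissues. In CPM, the joined miR-148a-3p entry lowers the level of every other pancreas name. With that entry left out of the totals, 0.527% of names were separated in this direction, and after upper quartile scaling 4.04%.

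The hepatocyte miRNA miR-122-5p was high in the liver alone. It was at 0 to 19.1 CPM in the pancreas, 25926 to 40363 CPM in the liver and at means of 2.04 CPM in the jejunum and 2.30 CPM in the ileum. In the glandular stomach it had a median of 0.803 CPM, and the mean of 7.74 CPM rested on the 66.5 CPM of rat 3. The log2 fold change was -2.28 ± 0.62 against the mean of 4 organs (edgeR, adjusted p = 0.0015) but -12.04 ± 0.96 against the liver, and 0.43 to 1.29 against the other 3 (edgeR, adjusted p of at least 0.13). Without the glandular stomach libraries of rats 3, 10 and 11, it was 1.26 ± 0.58 in place of 0.43 against the glandular stomach (edgeR, adjusted p = 0.071) and -2.12 ± 0.42 against the 4 organs. The remaining pair of the hepatocyte list, miR-802, was shared with the pancreas: miR-802-5p ranged from 175 to 362 CPM, against means of 1064 CPM in the liver, 169 to 190 CPM in the intestine and 3.50 CPM in the glandular stomach. It fell by 1.91 on the log2 scale against the liver and rose by 5.69 against the glandular stomach. Over the 4 tested names of the list, 1 rose and 2 fell, where 28.5% and 33.2% of all names did. Of the 2, miR-122-3p reached the filter's limit in no pancreas library, so it had to fall.

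Organ by organ, 171 names (30.1%) were higher and 199 (35.0%) lower in the pancreas than in the liver, 65.0% in all (edgeR). The numbers were 156 (27.4%) and 160 (28.1%), 55.5% in all, against the jejunum and 165 (29.0%) and 167 (29.3%), 58.3% in all, against the ileum. Against the glandular stomach 115 (20.2%) were higher and 204 (35.9%) lower, 56.1% in all. These comparisons share the pancreas libraries. Names with a direction that turned from organ to organ included miR-10b-5p, 4.14 against the liver and -0.61 ± 0.21 against the glandular stomach, and miR-205, a squamous epithelial miRNA, 3.66 against the liver and -4.73 against the glandular stomach.

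The list of miR-10 and miR-196, encoded in the HOX clusters, had 1 name higher and 4 lower of 7, where 28.5% and 33.2% of all names were. The other 2, both miR-196 entries, were not called and reached the filter's limit in no pancreas library. miR-10a-5p (8088 to 15032 CPM) fell by 2.27 ± 0.17 on the log2 scale, whereas miR-10b-5p (8276 to 14942 CPM) rose by 0.76 ± 0.16. The pancreas held the pair at nearly the same level, while miR-10a-5p exceeded miR-10b-5p in the liver (33014 and 654 CPM) and in the gut. miR-196c-5p had a mean of 80.3 CPM in the ileum and at most 0.606 CPM in the pancreas, with no usable error for its fold change.

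The remaining cell type lists are set beside the 28.5% of all tested names that rose and the 33.2% that fell. The 7 leukocyte names all fell (median -1.29), 1 of them below the filter's limit in every pancreas library, with summed levels of 462 to 2417 CPM in the pancreas, 2718 to 4230 in the liver, 1435 to 2774 in the jejunum, 807 to 3452 in the ileum and 481 to 1049 in the glandular stomach. Of 4 stromal names 3 fell (median -1.34), among them miR-199a-3p (-1.37 ± 0.12) and miR-214-3p (-1.79 ± 0.15). Both endothelial names fell against the mean of 4 organs (median -0.31), with values near -1.98 for miR-126a-5p against the liver and 0.02 to 0.44 against the other organs. Of 8 erythroid names 2 rose and 3 fell, shares close to those of all names, and their sum was 412 to 775 CPM in the pancreas against 8754 to 15253 CPM in the liver. Among the 3, miR-486-3p reached the filter's limit in no pancreas library, so it had to fall. Of 3 neural names 1 fell, miR-9a-5p at -0.78 ± 0.22. All 3 names of miR-203 and miR-205, known from squamous epithelium, fell, with a median of -1.90. How much the share of these cells contributed to other differences was not tested.

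Widely expressed families are set beside the same shares. Of 19 let-7 names 14 rose and none fell (median 1.07), led among the abundant ones by let-7c-5p at 2.29 ± 0.09, with 7497 to 14757 CPM against organ means of 1051 to 2718 CPM. Among the 14, the joined entry of let-7c-5p and let-7f-5p passed the count filter through the pancreas. Of 8 miR-181 names 6 rose and 1 fell (median 0.74), and of 7 names of miR-101 and miR-26 5 rose and none fell (median 0.50). miR-101a-3p (5428 to 9327 CPM) rose by 2.40 ± 0.09 and was higher in the pancreas than in any of the other 22 tissues, the cerebellum being next at 5583 CPM, whereas miR-101b-3p did not pass (0.16 ± 0.10). Of 6 miR-29 names 4 rose (median 0.53). The miR-30 family, with 4 names higher and 6 lower of 15 (median -0.03), lay near the shares of all names. Of 9 miR-17/92 names 3 were higher and 5 lower (median -0.53). Relative to the median of all names, the list medians kept their sign under all 5 scalings of the libraries. Subtracting that median removes most of what a scaling changes, so this cannot show that directions are independent of the scaling. The median of all names itself was 0.08 with upper quartile scaling and 1.83 with totals without the joined miR-148a-3p entry.

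**Figure D5:**
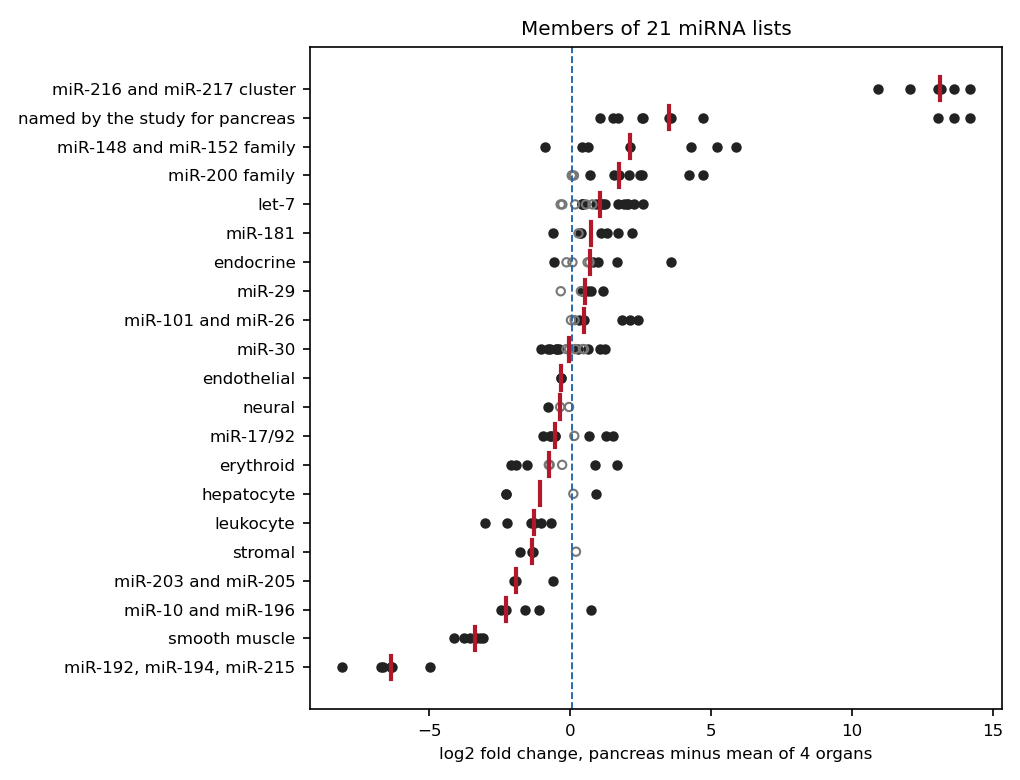
Log2 fold change of the pancreas against the mean of 4 organs for the tested members of 21 miRNA lists (filled, adjusted p below 0.05; open, not past it; red line, list median; blue dashed line, median of all 569 names, 0.08). The miR-216 and miR-217 cluster (median 13.13) and the list of miR-192, miR-194 and miR-215 (median -6.34) mark the ends, and 2 miR-196 entries without usable errors are not drawn.

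The study named 11 pancreas-enriched miRNAs that are conserved in the dog, and all 11 rose here, where 28.5% of all names did. Their median was 3.53. That list was chosen by the study on these samples, so its direction is not independent evidence, and 4 of its names passed the count filter through the pancreas. Beside the names described above it holds miR-320-3p (1.70 ± 0.09), miR-193b-3p (2.58 ± 0.11), miR-101c (3.53 ± 0.27), miR-4286 (1.53 ± 0.21) and miR-5100 (1.07 ± 0.39). For miR-5100 the pancreas mean was 13.0 CPM and the ileum mean 22.5 CPM, so not every member was highest in the pancreas even among these 5 organs.

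Besides the amounts, the lengths and forms of the reads differed. Of 63 abundant names, 32 (50.8%) had a mean read length that differed between the pancreas and the other organs, 30 of them shorter and 2 longer in the pancreas (exact sign-flip permutation tests over 10 rats with Benjamini-Hochberg adjustment). The median difference was -0.147 nucleotides. Without rat 5, whose pancreas library held extra first bases, 53 names differed. Without rats 3, 4 and 5, which gave the libraries with extra first bases, 51 of 64 did (79.7%, 49 shorter and 2 longer), a setting chosen after the data were seen. The share of the leading form differed for 21 of 63 names (33.3%), 12 of them higher and 9 lower in the pancreas, and for 36 without rat 5. RIN was lower in the pancreas by 2.08 on average, and its part in the lengths was not tested.

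miR-30a-5p showed the shift plainly. Its 20-base form, which ends early, made up 49.3% ± 7.64 (SD, n = 10) of its reads in the pancreas and 24.9% ± 1.77 in the mean of the 4 organs, and was higher in 10 of 10 rats (exact permutation, adjusted p = 0.0123). Without rats 3, 4 and 5 the shares were 52.4% ± 5.04 and 25.7% ± 1.28, higher in 7 of 7 rats (exact permutation, adjusted p = 0.027). The 24-base form made up 21.2% ± 4.44 in the pancreas and 41.1% to 53.6% elsewhere. Both forms have the same seed, in capitals below.
miR-30a-5p, 20 bases: tGTAAACAtcctcgactgga
miR-30a-5p, 24 bases: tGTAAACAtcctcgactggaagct

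Mean lengths were 21.4 against 22.5 bases for miR-30a-5p and 22.7 against 24.0 bases for miR-182, the latter difference being -1.32 ± 0.154 (SD). For miR-27b-3p the 20-base form made up 48.8% in the other organs and 64.8% in the pancreas (exact permutation, adjusted p = 0.0231), and 50.3% and 68.4% without rats 3, 4 and 5. The leading form of miR-375-3p made up 59.7% ± 8.73 of its reads in the pancreas and 62.7% ± 3.26 elsewhere (exact permutation, adjusted p = 0.59), and 62.2% ± 2.82 and 64.4% ± 0.830 without rats 3, 4 and 5 (exact permutation, adjusted p = 0.149), so it passed in neither set. The call for the joined miR-148a-3p entry depended on those rats. Its leading form made up 80.7% ± 13.4 in the pancreas, with 42.8% in the lowest library, and 73.6% ± 4.46 elsewhere over 10 rats (9 of 10 higher, exact permutation, adjusted p = 0.24), but 84.8% ± 1.73 and 76.2% ± 0.726 without rats 3, 4 and 5 (7 of 7 higher, exact permutation, adjusted p = 0.027). In the opposite direction, reads of miR-451-5p, which is matured without Dicer, were longer in the pancreas by 0.243 ± 0.151 bases than in the liver and the glandular stomach, in 10 of 10 rats, and by 0.219 ± 0.0972 in 7 of 7 rats without those 3.

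The balance between the 2 arms of a hairpin also differed. Of 25 hairpins with enough counts on both arms, 17 (68.0%) passed, 12 with a higher and 5 with a lower ratio of the 5p to the 3p arm in the pancreas (exact sign-flip permutation tests with Benjamini-Hochberg adjustment). let-7b had the largest rise, with a log2 ratio of 6.62 ± 0.402 (SD) in the pancreas and 4.46 ± 0.119 in the other organs, and miR-27b the largest fall, with -11.8 against -9.88, each in 10 of 10 rats (exact permutation, adjusted p = 0.0054). miR-423 was the 1 hairpin past the threshold whose major arm changed, from the 3p arm in the other organs (-0.564) to nearly even in the pancreas (0.105 ± 0.358), where single libraries lay on either side of 0. The liver alone had 0.0835, close to the pancreas.

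No name was called for a difference between male and female rats in the contrast of pancreas and other organs (edgeR, 0 of 569, 34 at an unadjusted p below 0.05, smallest adjusted p = 0.43). DESeq2 without the rat block called 3 names, mir-7641-2-pre, miR-210-3p and miR-7641. This does not show that the 5 males and 5 females were alike.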

How the data were processed

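Small RNA of 50 libraries was analysed. Per the labels and the study's methods, the authors extracted total RNA with miRNeasy, prepared TruSeq small RNA libraries, trimmed adaptors with cutadapt 1.4.1, assigned reads to miRBase and predicted hairpins with miRDeep2, and deposited the unnormalized counts of each miRNA name and of each isomiR sequence per run. Joined names hold reads that matched more than 1 hairpin, so the 2 sources of the joined miR-148a-3p entry cannot be told apart. Reads under 17 bases were dropped by the authors, which bounds the read lengths compared.

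Of 112 runs of the 5 tissues, 106 were summed to libraries and 6 were left out because their lane was already listed. Counts were tested with edgeR 4.0.16 in R 4.3.3 (filterByExpr, upper quartile scaling as in the study's own test, quasi-likelihood F test, tissue and rat as terms, Benjamini-Hochberg, threshold 0.05); 569 of 4829 names with a count were tested. The fit was checked on simulated data, in which upper quartile scaling, but not TMM, shifted unchanged names and called many of them. DESeq2 1.42.0, other scalings and filters, a single flow cell, no block and leaving out each rat were alternatives. Shares, RIN, read lengths (at least 50 counts in every library used) and arms (at least 10 counts) were compared by exact sign-flip permutation over rats with scipy 1.17.1 (Python 3.11.15, pandas 2.3.3, numpy 2.4.6; plots by matplotlib 3.10.9).

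The rat was a block because the same rats gave all organs. After removal of tissue means, the median correlation between tissues was -0.016 within a rat (100 pairs) and -0.0068 between rats (900 pairs). Names described were the 3 markers, the 10 with the largest share of pancreas counts, those with the largest fold changes of at least 100 CPM and the same direction in 10 rats, overall and per organ, the most abundant members of 21 lists, and the extremes for sex, read length and arms; miR-200c-3p, miR-7a-5p, miR-451-5p's length, the sequence forms of miR-375-3p and miR-148a-3p, the 3 names called by DESeq2 and the lesser names of the study's list were named after their values were seen. miR-7a-1-3p was likewise named after its value was seen. The members and lists were chosen with earlier results of these data known. Mature sequences and coordinates are from RefSeq on GRCr8; the authors' own coordinates were not used.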

Additional observations from a re-analysis of the deposited data

Results flagged for a closer look

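Among 126 groups of 10 libraries (levels of named miRNAs in the pancreas and library measures in 5 organs), 19 had a highest library whose distance from the next one was large relative to the group's range by Dixon's 95% criterion. Chance alone would give about 6.3.

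Reads with an extra first base made up 40.6% in the pancreas of rat 5, 34.6% in the ileum of rat 3, 23.7% in the glandular stomach of rat 4 and, at a far lower level, 0.187% in the jejunum of rat 6. The library total was highest by a wide step in the pancreas of rat 3 (6705848 counts) and in the glandular stomach of rat 3 (17725805 counts), and the ileum of rat 9 had 1272 names at 1000000 counts, against a median of 706 in the other 9.

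In the pancreas of rat 10, miR-10a-5p (15032 CPM), miR-10b-5p (14942 CPM), miR-126a-5p (4481 CPM), miR-191a-5p (3860.2 CPM) and miR-214-3p (30.9 CPM) stood above the other 9. In rat 7 the same held for miR-216a-3p (649.6 CPM), miR-148b-3p (854 CPM) and the joined entry of miR-29a-3p and miR-29c-3p (17.1 CPM), and in rat 4 for miR-96-5p (136 CPM) and miR-196c-5p (0.606 CPM, the only pancreas library with a count). In rat 5, miR-194-5p was at 115 CPM and the small separate entry of miR-148a-3p at 71.9 CPM, against a median of 17.3 CPM in the other 9; this library also held the extra first bases, whose part in these 2 values was not tested.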

How the results depend on the processing

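For the 91 names described or listed, fold changes relative to the median of all names were followed under 30 other settings. Of these values, 2617 kept direction and side of the threshold, 54 came past it, 49 no longer passed and 1 reversed. The reversal was miR-205, at 0.76 when the glandular stomach was left out of the comparison. Values relative to the median hide reversals that come from scaling. Not taken relative to it, 107 of the 303 calls shared with the main fit had the opposite sign with totals without the joined miR-148a-3p entry. With library totals, 2 of 295 did. The scaling moved the counts of calls most. Totals without the joined miR-148a-3p entry gave 461 higher and 34 lower against the 4 organs, 293 and 102 against the liver, 445 and 43 against the jejunum, 443 and 47 against the ileum, and 468 and 27 against the glandular stomach. Library totals gave 249 and 90 against the jejunum and 269 and 95 against the glandular stomach. In simulated data upper quartile scaling, unlike TMM, shifted unchanged names clearly and called many of them, a fault of the scaling used here. On these libraries the median of all names was 0.08 with it and 0.04 with TMM. With flow cell D1GBMACXX alone, which leaves 332 names to test, there were 104 higher and 94 lower against the 4 organs, 94 and 102 against the liver, 94 and 83 against the jejunum, 99 and 89 against the ileum, and 95 lower against the glandular stomach; 4 of 5 hairpins passed. With no filter on low counts, 265 were higher against the 4 organs, 320 against the liver, and 21 names were called for sex. DESeq2 with the rat block gave 174 higher against the glandular stomach, and without it 3 names for sex. The edgeR fit without the rat block gave 176 higher and 184 lower, and no count of calls moved by over 1.5 times when this pairing was dropped. Leaving out single rats gave 158 to 170 names higher and 182 to 189 lower, 16 to 36 names with another leading form and 26 to 53 with another length, the highest of both without rat 5, and 37 and 51 without rats 3, 4 and 5. The log10 library total was lower in the pancreas by 0.125 (exact sign-flip permutation, unadjusted p = 0.0352, adjusted p = 0.0502), so it did not pass after adjustment. With single rats left out the difference lay between -0.149 and -0.0975, and the unadjusted p no longer passed 0.05 without rat 4, 5, 7, 10 or 11. Without the joined entry, the difference in names holding 50% turned from -1.12 to 5.8 and that in names seen at equal depth rose to 364.6; this removes most pancreas counts and few of the others, so neither value bears on evenness. A minimum of 40 counts per arm left 9 hairpins of 13.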
